A study of Rattus norvegicus with 12 samples.

Results

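Immediate early genes were examined in rat atrial myocytes 16 h after exposure to an agonist of the receptor ERBB4. The members were chosen from a list of 6 genes, Fos, Jun, Atf3, Egr1, Myc and Dusp1, each given by its Ensembl identifier. The rule uses no measured value, but the list was drawn up with earlier results of these data known. Of the 19775 genes in the deposited gene table, 5 were members of this list. Dusp1 (ENSRNOG00000003977) was not among them, so its level was not analysed. The files give identifiers without names, so each name is the one paired with the identifier in the list.

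The study sequenced cells given EF-1, its small-molecule ERBB4 agonist, neuregulin-1 (NRG1), the natural ligand of this receptor, or vehicle. Its stated aim was to see what such agonists set off in cells. Bulk RNA sequencing of polyadenylated RNA was performed on iAMs, a line of wild-type neonatal rat atrial myocytes conditionally immortalized with a lentiviral vector for doxycycline-controlled SV40 large T antigen. iAMs proliferated in 2% serum with 100 ng/mL doxycycline, and were differentiated for 9 days without doxycycline. They were then incubated for 16 h with PBS as vehicle (libraries 1 to 4), with 0.1 µM NRG1 (libraries 5 to 8) or with 32 µM EF-1 (libraries 9 to 12). According to the study's methods, DMSO was present in all groups. The agonists were thus given at different doses, each at a single dose and a single time, in an immortalized line. The label of atrial myocytes was not checked against marker genes, because identifiers were not matched to names. The study calls its samples biological replicates, but the labels do not say that the libraries of a group came from separate cultures, so the p-values measure the spread between these libraries, which may be technical.

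The smallest and largest total gene counts were 12216228 and 27220266 among vehicle libraries, 21384901 and 27467198 among NRG1 libraries, and 13763279 and 17149059 among EF-1 libraries. Levels are given as counts-per-million (CPM), the gene's count divided by the library's total, with n = 4 libraries per group throughout. In bulk RNA, a lower level in every cell and fewer cells that express a gene cannot be told apart.

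Immediate early genes are transcribed within minutes of a growth factor signal, without the need for new protein synthesis, largely through the ERK branch of the MAP kinases acting on transcription factors that are already present. Their induction is typically transient, since both the messengers and the proteins are short-lived. ERBB4 and its partner ERBB2 signal through this ERK branch and through Akt in cardiomyocytes, and most of the genes listed encode transcription factors that act on later genes.

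After 16 h with NRG1, Fos, Egr1, Atf3 and Myc were higher than with vehicle, and Jun did not pass the test. A gene was called at an adjusted p under 0.05 together with a log2 fold change beyond 0.58 in either direction, in edgeR's quasi-likelihood test across the 10997 genes that passed a filter on low counts. All 5 genes passed this filter, also when it was applied to vehicle and EF-1 libraries only. With NRG1, 4 of 5 genes were called higher, whereas 10.1% of all tested genes were called higher. For the same 4 genes every NRG1 library lay above every vehicle library, which held for 20.6% of all tested genes. The median log2 fold change for NRG1 vs vehicle was 1.13 over the 5 genes and -0.01 over all tested genes.

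With EF-1, none of the 5 genes was called against vehicle by edgeR (0 of 5), and 0.0273% of all tested genes were called in either direction. DESeq2 also called 0 of the 5, with 93 of 14921 genes called in all, and limma-voom called 0 of the 5 and 0 of all 10997 genes. The study itself reported far more genes for EF-1 against vehicle at these thresholds. It used DESeq2 with sequencing run as a covariate, which the fits here leave out because the labels do not give it. Whether the run accounts for the lower counts here was not tested. At an unadjusted p under 0.05, 1 of the 5 (Jun) and 2256 of all tested genes passed in edgeR. EF-1 and vehicle libraries overlapped for each of the 5 genes, while 4.42% of all tested genes had groups that did not overlap in either direction. The median log2 fold change for EF-1 vs vehicle was 0.34 over the 5 genes and -0.01 over all tested genes. The count over all genes was not stable when single libraries were left out. Without EF-1 library 12, edgeR called 1554 genes in this comparison instead of 3. It called 1 without EF-1 library 10 or 11, and 0 without EF-1 library 9 or any single vehicle library. None of the 5 genes was called in any of these fits.

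Tested directly against NRG1, EF-1 gave lower levels of 4 of 5 genes, where 13.2% of all tested genes were called lower. For these 4 genes every EF-1 library lay below every NRG1 library, as for 19.2% of all tested genes. The median log2 fold change for EF-1 vs NRG1 was -1.15 over the 5 genes and 0.02 over all tested genes. The comparisons of NRG1 and of EF-1 with vehicle share the vehicle libraries, so each gene is described below by its own values in all groups.

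**Figure D1:**
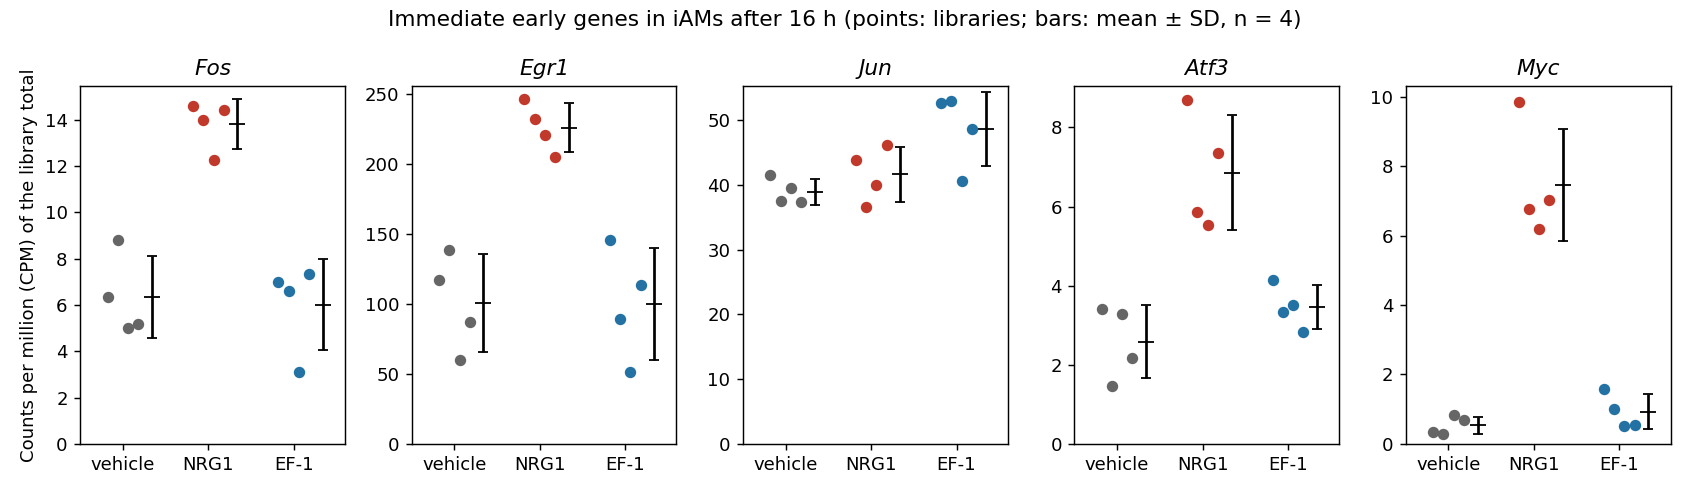
Level of each gene (vertical axis, counts-per-million of the library total, starting at 0) in iAMs by treatment (horizontal axis), with 1 point per library and bars for mean ± SD (n = 4). Every NRG1 library lies above every vehicle and EF-1 library for Fos, Egr1, Atf3 and Myc, while the Jun groups overlap.

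Fos encodes a basic leucine zipper protein that pairs with Jun proteins to form the transcription factor AP-1. In vehicle libraries 1 to 4, Fos (ENSRNOG00000008015) was at 6.35, 8.82, 4.99 and 5.19 CPM. In NRG1 libraries 5 to 8 it was at 14.6, 14.0, 12.3 and 14.4 CPM, and in EF-1 libraries 9 to 12 at 6.99, 6.61, 3.09 and 7.36 CPM. The lowest NRG1 library was thus above the highest vehicle library, vehicle library 2. EF-1 libraries 9, 10 and 12 lay inside the vehicle range, and EF-1 library 11 lay below it. The mean Fos level rose from 6.34 ± 1.76 CPM (SD) with vehicle to 13.8 ± 1.07 CPM with NRG1. The log2 fold change was 1.07 (standard error 0.23, 95% confidence interval 0.57 to 1.58, adjusted p = 0.00352, edgeR). With EF-1 the mean level was 6.01 ± 1.97 CPM, and the log2 fold change against vehicle of -0.09 was smaller than its standard error of 0.24 (adjusted p = 0.811, edgeR). Its 95% confidence interval covered folds from 0.651 to 1.35, so the 2.10-fold difference found for NRG1 lay outside it. The sign of this EF-1 difference was not stable, as leaving out vehicle library 2 turned it to 0.14 and leaving out EF-1 library 11 turned it to 0.11. Between the agonists, Fos was lower with EF-1 by a log2 fold change of -1.17 (95% confidence interval -1.68 to -0.65, adjusted p = 0.00194, edgeR).

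Jun encodes the basic leucine zipper partner of Fos in AP-1. In vehicle libraries 1 to 4, Jun (ENSRNOG00000026293) was at 41.5, 37.5, 39.5 and 37.3 CPM. In NRG1 libraries 5 to 8 it was at 43.8, 36.6, 40.0 and 46.2 CPM, and in EF-1 libraries 9 to 12 at 52.6, 52.9, 40.6 and 48.6 CPM. The NRG1 libraries spanned the vehicle range on both sides. EF-1 libraries 9, 10 and 12 were above all vehicle and NRG1 libraries, whereas EF-1 library 11 was below vehicle library 1. Mean levels were 38.9 ± 1.97 CPM with vehicle, 41.7 ± 4.23 CPM with NRG1 and 48.7 ± 5.71 CPM with EF-1. For NRG1 vs vehicle the log2 fold change was 0.07 (standard error 0.10, adjusted p = 0.664, edgeR), with a 95% confidence interval of 0.901 to 1.22 for the fold. For EF-1 vs vehicle it was 0.34 (standard error 0.10, 95% confidence interval 0.12 to 0.55). The unadjusted p of this difference was 0.00514 and the adjusted p 0.225 in edgeR, so it did not pass. The adjusted p was 0.0440 with DESeq2 and 0.0340 in edgeR without EF-1 library 12, but the difference was below the fold threshold in each case. Between the agonists, Jun was higher with EF-1 by a log2 fold change of 0.27 (95% confidence interval 0.06 to 0.49). That difference passed the adjusted p (0.0442, edgeR) and not the fold threshold, and across the alternative settings its adjusted p ranged from 0.0188 to 0.150.

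Atf3 encodes a basic leucine zipper protein induced by many kinds of cell stress as well as by growth factors. In vehicle libraries 1 to 4, Atf3 (ENSRNOG00000003745) was at 3.42, 1.47, 3.27 and 2.18 CPM. In NRG1 libraries 5 to 8 it was at 8.69, 5.86, 5.54 and 7.34 CPM, and in EF-1 libraries 9 to 12 at 4.15, 3.34, 3.50 and 2.82 CPM. All NRG1 libraries were above all others. EF-1 libraries 9 and 11 were above the highest vehicle library, and EF-1 libraries 10 and 12 were within the vehicle range. Atf3 rose from 2.59 ± 0.928 CPM with vehicle to 6.86 ± 1.45 CPM with NRG1, a log2 fold change of 1.41 (standard error 0.25, 95% confidence interval 0.87 to 1.94, adjusted p = 0.000784, edgeR). The mean with EF-1 was 3.45 ± 0.55 CPM, and the log2 fold change against vehicle of 0.47 did not pass the test (95% confidence interval -0.09 to 1.02, adjusted p = 0.273, edgeR). Leaving out a single library gave log2 fold changes from 0.26, without vehicle library 2, to 0.65, without vehicle library 1. It was 0.18 with 1 surrogate variable, a covariate for variation that the groups do not account for. Atf3 was lower with EF-1 than with NRG1, at a log2 fold change of -0.94 (95% confidence interval -1.47 to -0.42, adjusted p = 0.00805, edgeR).

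Egr1 encodes a zinc finger transcription factor that binds GC-rich promoters. In vehicle libraries 1 to 4, Egr1 (ENSRNOG00000019422) was at 117, 139, 59.7 and 86.8 CPM. In NRG1 libraries 5 to 8 it was at 246, 232, 221 and 205 CPM, and in EF-1 libraries 9 to 12 at 146, 88.9, 51.1 and 114 CPM. The NRG1 libraries were close to each other and above all others. The vehicle and EF-1 libraries were widely spread over nearly the same range, with EF-1 library 9 above the highest vehicle library and EF-1 library 11 below the lowest. Egr1 rose from 101 ± 34.7 CPM with vehicle to 226 ± 17.5 CPM with NRG1, a log2 fold change of 1.13 (standard error 0.28, 95% confidence interval 0.52 to 1.73, adjusted p = 0.00783, edgeR). With EF-1 the mean was 99.9 ± 40.0 CPM, a log2 fold change of -0.02 against vehicle (standard error 0.28, adjusted p = 0.963, edgeR). The 95% confidence interval of this fold, 0.650 to 1.49, did not reach the 2.19-fold difference found for NRG1. The sign of the EF-1 difference was not stable, as it became 0.06 when vehicle library 1 was left out and 0.19 when vehicle library 2 was. It became 0.01 when EF-1 library 10 was left out and 0.18 when EF-1 library 11 was. Between the agonists, the log2 fold change of Egr1 for EF-1 vs NRG1 was -1.15, lower with EF-1 (95% confidence interval -1.76 to -0.54, adjusted p = 0.00571, edgeR).

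The deposited counts of all genes depended on a length correction. Between libraries, the effective length that Salmon estimated ranged from 1631 to 1998 bases for Fos and from 3746 to 4335 for Jun. It ranged from 1793 to 1937 bases for Atf3 and from 2584 to 3036 for Myc. The range was widest for Egr1. The Egr1 count matched 1 transcript of 3130 annotated bases, but the effective length estimated for it ranged from 3039 to 4578 bases. It was longest in vehicle library 2 (4578 bases) and EF-1 library 12 (4450 bases). In vehicle library 2 the deposited count was 3782, whereas Salmon had assigned 4612 reads to the transcript. Scaled to the reads assigned in each library, Egr1 was at 104, 162, 56.8 and 94.0 RPM (reads-per-million) in vehicle libraries 1 to 4. It was at 222, 226, 192 and 199 RPM in NRG1 libraries 5 to 8, and at 123, 71.9, 44.8 and 129 RPM in EF-1 libraries 9 to 12. Every NRG1 library was again above all others, with NRG1 library 7 (192 RPM) nearest to vehicle library 2 (162 RPM). With these reads in place of the gene counts, the log2 fold change of Egr1 for NRG1 vs vehicle was 1.00 and its adjusted p 0.0381 (edgeR).

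Myc encodes a basic helix-loop-helix leucine zipper factor that drives genes of growth and ribosome production. In vehicle libraries 1 to 4, Myc (ENSRNOG00000004500) was at 0.331, 0.294, 0.819 and 0.674 CPM, from 6, 8, 10 and 13 counts. In NRG1 libraries 5 to 8 it was at 9.84, 6.77, 6.20 and 7.01 CPM, from 240, 186, 168 and 150 counts. In EF-1 libraries 9 to 12 it was at 1.59, 1.02, 0.525 and 0.552 CPM, from 23, 14, 9 and 9 counts. The lowest NRG1 library was far above the highest of all the others, EF-1 library 9. EF-1 libraries 9 and 10 were above the vehicle range, and EF-1 libraries 11 and 12 were inside it. The counts limit the precision of the low values. The exact binomial 95% confidence interval of the count out of the library total covers counting error only. It was 0.127 to 0.579 CPM in vehicle library 2 and 1.01 to 2.39 CPM in EF-1 library 9. In NRG1 library 7 it was 5.30 to 7.21 CPM. Myc rose from 0.530 ± 0.258 CPM with vehicle to 7.46 ± 1.62 CPM with NRG1, a 14.5-fold difference (95% confidence interval 8.40 to 24.9, adjusted p = 5.82e-06, edgeR). Its log2 fold change for NRG1 vs vehicle, 3.85 (standard error 0.36), ranked 27 from the highest of the 10997 tested genes. The mean with EF-1 was 0.922 ± 0.501 CPM, and the log2 fold change against vehicle of 0.86 did not pass the test (standard error 0.42, adjusted p = 0.248, edgeR). Leaving out a single library gave log2 fold changes from 0.50, without EF-1 library 9, to 1.09, without vehicle library 3. The 95% confidence interval of the fold was 0.967 to 3.42, so an EF-1 difference of the size found for NRG1 lay outside it. Compared with NRG1, Myc was lower with EF-1, at a log2 fold change of -2.99 (95% confidence interval -3.73 to -2.25, adjusted p = 2.65e-05, edgeR).

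**Figure D2:**
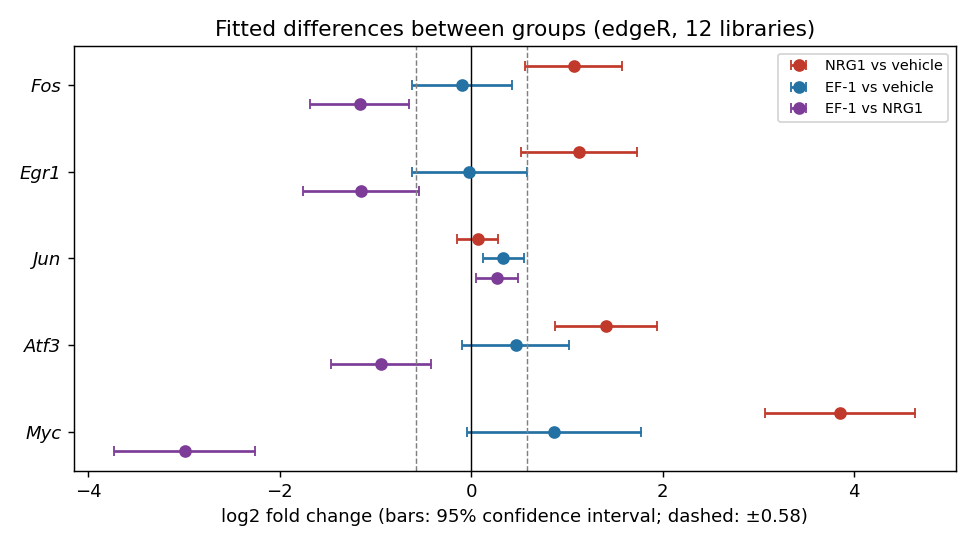
Log2 fold change (horizontal axis) of each gene (vertical axis) for NRG1 vs vehicle, EF-1 vs vehicle and EF-1 vs NRG1, from edgeR on 12 libraries, with 95% confidence intervals as bars and dashed lines at 0.58 in either direction. Myc has the highest NRG1 vs vehicle value (3.85), and among the EF-1 vs vehicle intervals that of Jun alone (0.12 to 0.55) does not include 0.

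Levels were compared between genes only per length, as transcripts-per-million (TPM) of the transcript that matched each gene count. With vehicle the order of mean TPM was Egr1 (30.7 ± 10.9), Jun (11.1 ± 0.492), Fos (4.04 ± 1.17), Atf3 (1.54 ± 0.538) and Myc (0.212 ± 0.0958), and the libraries of neighbours in this order did not overlap. With NRG1 the order was Egr1 (70.5 ± 5.01), Jun (12.1 ± 0.972), Fos (8.99 ± 0.615), Atf3 (4.17 ± 0.733) and Myc (3.04 ± 0.549). Here Atf3, at 3.43 to 5.05 TPM, and Myc, at 2.58 to 3.84 TPM, were not separated beyond the spread of their libraries. With EF-1 the order of means was again Egr1 (29.7 ± 14.1), Jun (13.3 ± 2.38), Fos (3.70 ± 1.41), Atf3 (1.98 ± 0.415) and Myc (0.358 ± 0.216). In that group Egr1, at 13.4 to 46.2 TPM, overlapped with Jun, at 9.94 to 15.6 TPM. Fos, at 1.68 to 4.71 TPM, likewise overlapped with Atf3, whose lowest library was at 1.71 TPM. The order of the means was therefore the same in the 3 groups.

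The genes also differed in how widely the libraries of a group were spread. The coefficient of variation of the Egr1 level in CPM was 34.5% with vehicle and 40.1% with EF-1, but 7.73% with NRG1. For Fos it was 27.8% with vehicle, 32.8% with EF-1 and 7.74% with NRG1. Fos and Egr1 were both highest in library 2 and lowest in library 3 among vehicle libraries, and both lowest in library 11 among EF-1 libraries. Jun varied least with vehicle, at 5.07%, and had 10.2% with NRG1 and 11.7% with EF-1. The coefficient of variation of Atf3 was 35.9% with vehicle, 21.2% with NRG1 and 15.9% with EF-1, and that of Myc was 48.7%, 21.8% and 54.4%. Differences in spread between groups were not tested.

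Across the 12 libraries, the Pearson correlation of log2 CPM was 0.957 between Fos and Egr1 and 0.893 between Atf3 and Myc. Jun had correlations between -0.13 and 0.11 with the other 4 genes. These values include the differences between groups and any variation that genes of a library share after scaling for depth, and are given as a description. Among tested genes that were called higher with NRG1, the gene listed as ENSRNOG00000001803 was the most like Myc, with a correlation of 0.976. Its level was 120 ± 4.35 CPM with vehicle, 213 ± 13.6 CPM with NRG1 and 124 ± 12 CPM with EF-1. The gene listed as ENSRNOG00000010058 was the most like Fos among such genes, with a correlation of 0.972. Its level was 15.8 ± 3.44 CPM with vehicle, 45.4 ± 3.69 CPM with NRG1 and 15.3 ± 4.40 CPM with EF-1. Both were picked for this pattern over the 12 libraries, so their levels are a description and no test is given.

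Of the 6 listed genes, 2 (Egr1 and Dusp1) were matched by symbol to the RefSeq promoter table of the rat assembly GRCr8, which holds 250 bases before and 50 bases after each gene start. The 300 bases were searched on both strands for the CArG box (named for its CC and GG around a run of A and T), which serum response factor binds, and for sites of factors that act downstream of growth factors. These were the CRE (TGACGTCA), the AP-1 site (TGANTCA), the E-box (CACGTG) and the EGR site (GCG followed directly by GGGGCG or by TGGGCG). The TATA box (TATAAA) was searched as well. The Egr1 window held 2 CArG boxes, at 105 to 96 and at 83 to 74 bases before the gene start, and no match to the other motifs. The Dusp1 window held no CArG box, but a CRE at 124 to 117 and an E-box at 107 to 102 bases before the gene start. Of 33469 promoters in the table, 548 (1.64%) held a CArG box. The other motifs were found in 1.83% (CRE), 7.33% (AP-1 site), 6.42% (E-box), 3.2% (EGR site) and 14.2% (TATA box) of promoters. A match describes the letters of this window, and binding to it was not measured. The 150 bases before the start of Egr1 are shown because this gene rose with NRG1, at chr18:26736928-26737077 on the plus strand of GRCr8, with the CArG boxes in capitals.
Egr1: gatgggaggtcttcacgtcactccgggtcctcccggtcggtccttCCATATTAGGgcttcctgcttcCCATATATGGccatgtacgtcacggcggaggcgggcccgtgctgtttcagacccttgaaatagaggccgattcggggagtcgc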

How the data were processed

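RNA from 12 libraries of iAMs, 4 per group, was analysed. The authors quantified transcripts with Salmon against Rnor_6.0 and deposited estimated counts and TPM per transcript for each library. They also deposited estimated counts per gene, made with tximport by scaling abundances to transcript length, so a gene count can differ from the reads assigned. Gene counts were rounded to whole numbers and tested with edgeR 4.0.16 in R 4.3.3, with a robust quasi-likelihood fit of all 12 libraries, TMM factors and the filterByExpr filter at a minimum count of 10. P-values were adjusted by Benjamini-Hochberg over all tested genes. Genes were called at an adjusted p of 0.05 and an absolute log2 fold change of 0.58. Sequencing run, a covariate in the study, was left out of the fit, as the labels do not give it. Log2 CPM used a prior count of 2. Library totals, from 12216228 to 27467198, set the precision of low counts. Each gene was paired with the transcript whose TPM multiplied by its mean effective length matched the gene's counts across the 12 libraries. Alternatives were library size only, DESeq2 size factors, DESeq2 1.42.0, limma-voom (limma 3.58.1), no filter and the compared groups only. Further alternatives were 1 surrogate variable (sva 3.50.0), transcript reads, and each library of the compared groups left out in turn. The edgeR fit was tested on simulated data.

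The members and lists were chosen with earlier results of these data known. Genes named were the listed members and, for each, the tested genes with the highest Pearson correlation of log2 CPM, of which at most 2 that rose and 2 that fell were printed. Because identifiers were not matched to names in the RefSeq table of GRCr8, lists fixed by symbol (other immediate early genes, ERK feedback genes, MYC network genes, ERBB receptors, MAP kinases and cell type markers) were not run. Protein sequences were not used here.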

Additional observations from a re-analysis of the deposited data

How the results depend on the processing

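The number of listed genes called stayed at 4 for NRG1 vs vehicle, 0 for EF-1 vs vehicle and 4 for EF-1 vs NRG1 under every alternative run. Of 240 log2 fold changes of single genes under these alternatives, 232 kept their direction and their call (whether both thresholds were passed), and the other 8 were EF-1 vs vehicle differences near 0 that changed sign. With 1 surrogate variable the log2 fold change was 0.12 for Fos and 0.20 for Egr1. With a single library left out it ranged from -0.20 to 0.14 for Fos and from -0.23 to 0.19 for Egr1, with positive values for Fos without vehicle library 2 (0.14) or EF-1 library 11 (0.11), and for Egr1 without vehicle library 1 (0.06), vehicle library 2 (0.19), EF-1 library 10 (0.01) or EF-1 library 11 (0.18). The cause was not tested. Jun was never called, but its adjusted p alone crossed 0.05. For EF-1 vs NRG1 it was under 0.05 in 5 of 8 alternatives that kept all libraries of these groups and in 3 of 8 that left out 1. For EF-1 vs vehicle it ranged from 0.0340 to 0.523, and was under 0.05 with DESeq2 (0.0440) and without EF-1 library 12 (0.0340). For EF-1 vs vehicle the log2 fold change ranged over all alternatives from 0.18 to 0.65 for Atf3 and from 0.50 to 1.09 for Myc.

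Over all genes, 3 were called for EF-1 vs vehicle in edgeR. This count was 5 with library size only, 2 with DESeq2 size factors, 93 with DESeq2, 1 with only the compared groups and 16 with 1 surrogate variable. It was 0 with limma-voom (2064 at an unadjusted p under 0.05) and 0 with transcript reads in edgeR (2443 at an unadjusted p under 0.05). It was 1554 without EF-1 library 12, and 0 or 1 without any other EF-1 library or any vehicle library (994 to 2985 at an unadjusted p under 0.05). NRG1 libraries were not left out for this comparison. No paired analysis was possible because no number is carried by libraries of more than 1 group. Depth limits Myc most, with 6 to 13 counts per vehicle library and 9 to 23 per EF-1 library.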
